A study of Rattus norvegicus with 2 samples.

Results

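Interleukin-1 (IL-1) family genes and the core inflammasome were followed in rat cervical lymph nodes through 10 genes: *Il1a*, *Il1b*, *Il1rn*, *Il1r1*, *Il1r2*, *Il18*, *Il33*, *Il1rl1*, *Nlrp3* and *Casp1*. They were picked by gene name as the main ligands, the antagonist, the receptors and decoys and the processing machinery of the family, and all were found by the gene name of their probes among 36174 names on the array. The rule itself uses no measured value, but it was set with earlier results of these data known. Counts of these genes below are therefore a description. The animals of both groups were males of the Sprague-Dawley strain aged 10-12 weeks, unstressed in the C group and held under restraint stress in the RS group, and 1 Agilent rat array was deposited for each. The labels give no restraint time, the array comparison in the paper is with its RS30 group, and pooling of animals is not stated for the arrays. Since each group had 1 array, no difference below has a replicate check, and none has a p-value.

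IL-1α and IL-1β are inflammatory cytokines that signal through the receptor IL-1R1 and its partner IL-1RAP to the adaptor MyD88 and to NF-kB. The signal is braked by a receptor antagonist encoded by *Il1rn*, which occupies IL-1R1 without activating it, and by the decoy receptor encoded by *Il1r2*. IL-1β and IL-18 are made as inactive precursors that caspase-1 cleaves in the inflammasome, whereas IL-33 is a nuclear alarmin of stromal cells that is sensed by ST2, the product of *Il1rl1*. In lymph nodes, macrophages and dendritic cells are known sources of IL-1, and reticular and endothelial cells are known sources of IL-33.

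Each array read the 10 genes with 16 probes of 60 bases. *Il1r1*, *Il1rl1* and *Nlrp3* had several probes, and for these 3 genes the probes read different transcripts or different places of a transcript. The probes that cross an intron are shown whole, since their ends lie in different exons. They are written 5′ to 3′ as on the array, with positions in the build rn4 that the files name.
*Il1r2* (NM_053953, chr9:39316654-39319494, plus strand): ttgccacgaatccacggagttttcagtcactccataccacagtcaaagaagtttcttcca
*Il1r1* (NM_013123, chr9:39462421-39464677, plus strand): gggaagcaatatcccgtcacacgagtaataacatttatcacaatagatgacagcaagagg
*Il1r1* (NM_013123, chr9:39472634-39473165, plus strand): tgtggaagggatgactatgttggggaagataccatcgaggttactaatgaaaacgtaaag
*Il1rl1* variant 2 (NM_001127689, chr9:39619275-39620742, plus strand): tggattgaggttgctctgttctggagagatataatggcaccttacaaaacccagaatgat
*Nlrp3* (NM_001191642, chr10:45873953-45874157, plus strand): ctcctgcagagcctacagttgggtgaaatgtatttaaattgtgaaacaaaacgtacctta

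The other probes named below match 60 continuous bases of the genome. The first 30 bases are given for *Il1a*, *Il1b* and the antagonist and for the *Il1r1* and *Il1rl1* probes on which the gene's value rests. They are also given for the variant 1 probe of *Il1rl1*, which does not stand for the gene. For *Il1b* and *Il1rn* the gene has only the probe shown.
*Il1a* (NM_017019, chr3:116913748-116913807, minus strand): ctaaccatctaaagacgggaagaacctaac
*Il1b* (NM_031512, chr3:116964465-116964524, minus strand): gctgaaaatgaagagtttcatattgtgtgg
*Il1rn* (NM_022194, chr3:2613130-2613189, plus strand): ccagagtatgtgttatttgtgctcatggaa
*Il1r1* predicted variant X5 (XM_006244750, chr9:39475309-39475368, plus strand): tttgtttgtttatttttaacttgatgactg
*Il1rl1* predicted variant X4 (XM_006244742, chr9:39626701-39626760, plus strand): tatagagtgagttctagggcaccagagctt
*Il1rl1* variant 1 (NM_013037, chr9:39617225-39617284, plus strand): tttttaattcacctgttgctattcaaatca

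Intensities below are scanner brightness in arbitrary units after background subtraction. A difference is RS minus C on the log2 scale after each array was set to its own 75th percentile (189 in intensity for C, 176 for RS), and its error combines the spot errors that the scanner software gives for both arrays. This error covers the measurement of the spots and not the spread between animals. The brightest probe of a gene stood for the gene, and a gene entered the screen if the scanner software marked this probe as well above background in C, RS or both, as it did for 21096 genes and for all 10 genes of the family. Of 45598 probes per array, 54.7% in C and 54.9% in RS were marked so, and no probe was saturated.

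The antagonist gene *Il1rn* and the receptor genes *Il1r1* and *Il1r2* were higher by 2-fold or more in the RS array, and no gene of the family was lower by that much. Of all screened genes, 730 (3.46%) were higher and 903 (4.28%) lower at this threshold, against 3 and 0 of the 10 family genes. *Il1b* lay just under the threshold, at 1.997-fold. All 10 differences were above zero, with a median of 0.77 against 0.016 over all screened genes, and 4 of them were under 0.5. The share of screened genes past 2-fold higher depended on brightness, with 6.20% in the dimmest signal quartile, 3.79% and 2.33% in the middle ones and 1.52% in the brightest. *Il1rn* and *Il1b* lay in the brightest quartile and *Il1r1* in the dimmest.

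**Figure D1:**
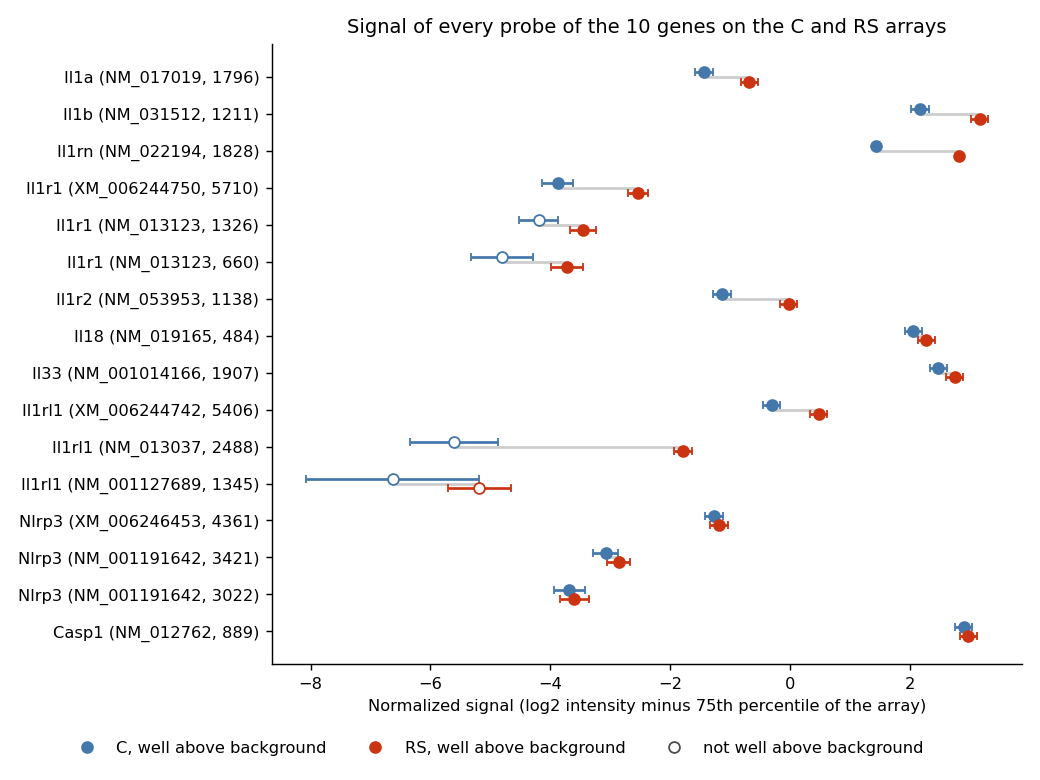
Normalized signal (log2 intensity relative to each array's 75th percentile, x axis) of each of the 16 probes on the C array (blue) and the RS array (red), with the spot error as bars and open circles for signals not well above background; labels give the transcript and the probe's position in it. The red point lies to the right of the blue one for all 16 probes, by 1.38 for *Il1rn* and by 0.08 for *Casp1*.

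**Figure D2:**
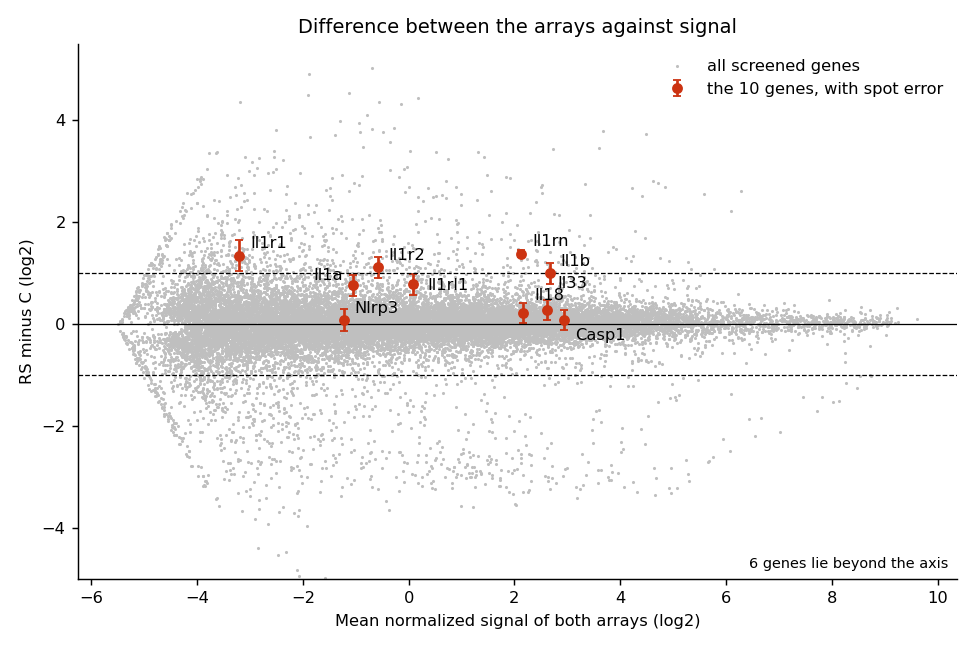
RS minus C difference (log2, y axis) against the mean normalized signal of both arrays (log2, x axis) for the 21096 screened genes in grey and the 10 family genes in red with spot error; dashed lines mark 2-fold, and 6 genes lie beyond the axis. *Il1rn*, *Il1r1* and *Il1r2* lie above the upper line, and *Nlrp3* and *Casp1* lie near zero.

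*Il1rn*, which encodes the IL-1 receptor antagonist, was the best measured gene of the family because the array carries its probe on 10 spots. On the C array the 9 spots used ran from 483 to 543 with a median of 509, and on the RS array they ran from 1168 to 1322 with a median of 1260. The spots of the arrays did not overlap, and the 1 spot left out on each array as an outlier read 573 and 1420. The difference was 1.38 ± 0.07 (spot error), a 2.61-fold rise, and its 95% spot interval of 1.25 to 1.52 lay wholly above 2-fold. Among the probes that stood for the 10 genes *Il1rn* had the largest difference, and 1.90% of all screened genes were higher.

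*Il1b*, which encodes the secreted cytokine IL-1β, read 850.5 on the C array and 1586 on the RS array. The difference was 0.998 ± 0.204, so the spot interval of 0.60 to 1.40 spanned the threshold that the gene missed. *Il1a*, which encodes IL-1α, a cytokine active without inflammasome cleavage, read 69.7 and 110, a difference of 0.76 ± 0.21. Both genes lie side by side on chromosome 3 with their probes 50.7 kb apart, and their differences were 0.24 ± 0.29 apart, with an interval of -0.34 to 0.81. *Il1rn* stood 0.38 ± 0.22 above *Il1b*, and here too the interval of -0.04 to 0.81 included zero. Its difference was 0.62 ± 0.22 above that of *Il1a*, with an interval of 0.19 to 1.05. At this precision *Il1rn* and *Il1b* have no order, nor have *Il1b* and *Il1a*, while the spot interval places *Il1rn* above *Il1a*.

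*Il18* and *Il33*, the other cytokine ligands of the family, stayed well under 2-fold. *Il18*, whose product drives interferon-γ production, read 788 and 857, a difference of 0.22 ± 0.20. *Il33*, the stromal alarmin, read 1052 and 1189, a difference of 0.28 ± 0.20. Both spot intervals included zero, from -0.18 to 0.62 for *Il18* and from -0.12 to 0.68 for *Il33*. The difference of *Il1b* was 0.78 ± 0.29 above that of *Il18*, with an interval of 0.21 to 1.34. The probe of *Il18* shares a stretch of 16 bases, AAGGATGAAAATGGGG, with 1 probe of another gene, whose own difference was 0.29.

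The stretches upstream of *Il1rn* and *Il1b* are shown because the antagonist and the ligand it opposes lay closest to or past the threshold with bright probes. They are the 250 bases before the RefSeq gene start in GRCr8, 5′ to 3′ on the strand of the gene, with the matches of 4 short motifs in capitals, searched on both strands.
*Il1rn* (chr3:27520072-27520321, plus strand): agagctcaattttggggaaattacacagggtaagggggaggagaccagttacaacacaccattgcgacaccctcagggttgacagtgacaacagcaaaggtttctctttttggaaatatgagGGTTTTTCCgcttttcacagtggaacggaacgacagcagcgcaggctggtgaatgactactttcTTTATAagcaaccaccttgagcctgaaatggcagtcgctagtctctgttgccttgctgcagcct
*Il1b* (chr3:137036582-137036831, minus strand): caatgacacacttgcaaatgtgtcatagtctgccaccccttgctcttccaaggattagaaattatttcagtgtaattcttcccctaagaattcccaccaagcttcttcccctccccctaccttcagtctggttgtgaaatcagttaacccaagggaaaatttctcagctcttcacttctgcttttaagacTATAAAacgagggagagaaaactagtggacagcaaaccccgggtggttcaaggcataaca
The stretch of *Il1rn* held GGTTTTTCC, a match of the NF-kB motif GGNNTTTCC, 128 bases before the start, and TTTATA, the reverse complement of the TATA motif TATAAA, 64 bases before it. The stretch of *Il1b* held TATAAA 60 bases before the start. No motif letters overlapped another match in either. Of the 9 family genes with a promoter in the RefSeq table (all but *Il1r2*), *Il1rn* alone held GGNNTTTCC, which 6.05% of all 33469 promoters hold. TATAAA was in 5 of the 9, namely *Il1a*, *Il1b*, *Il1rl1*, *Il1rn* and *Il33*, and in 14.2% of all. The AP-1 motif TGANTCA was in *Il18* and *Il1a* and in 7.33% of all, and the cAMP response motif TGACGTCA was in none of the 9 and in 1.83% of all. The AP-1 match of *Il1a*, TGACTCA, lay 12 bases before its start. These are letter matches only and are not binding sites.

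*Il1r2* and *Il1r1*, the decoy and the signaling receptor of IL-1, both rose past 2-fold by their representative probes. *Il1r2* read 85.9 on the C array and 174 on the RS array, with the intron-crossing probe printed above, a difference of 1.11 ± 0.21 or 2.16-fold. Its spot interval of 0.71 to 1.52 spanned the threshold. With normexp, another background correction, the difference was 0.75, under 2-fold.

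*Il1r1* was dim on every probe. The predicted variant X5 read 12.9 and 30.6, a difference of 1.34 ± 0.31 or 2.54-fold with an interval of 0.74 to 1.95, and no other probe of this gene was above background on both arrays. The probes of the curated transcript NM_013123 rose above background on RS but not on C. The one at base 1326 read 10.3 and 16.1, a plain ratio of 1.67-fold. The one at base 660 read 6.75 and 13.4, which is 1.52-fold above the C array's detection limit. The spot intervals of their ratios, -0.03 to 1.51 and -0.05 to 2.23, both included zero. All 3 probes were brighter on the RS array, but the value past 2-fold rests on the predicted variant, and with normexp its difference was 0.41. The difference of *Il1r2* was 0.23 ± 0.37 below that of *Il1r1*, with an interval of -0.96 to 0.50.

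*Il1rl1*, which encodes the IL-33 receptor ST2 both as a membrane receptor and as a soluble decoy, gave unlike values on its 3 probes. The predicted variant X4, its brightest probe, read 153 and 246, a difference of 0.79 ± 0.21 or 1.72-fold. The probe of variant 1 read 3.86 on the C array, not well above background, and 51.1 on the RS array, at least 5.79-fold higher. With the main background subtraction, this probe, which did not represent the gene, thus held the largest value of the family. By it the gene would pass 2-fold. With normexp the difference of the variant 1 probe was 0.92, under 2-fold and below the 1.27 of *Il1rn*. The probe of variant 2 read 1.91 and 4.85, at background level in both, so it has no fold. The files do not say which of these variants encodes the membrane or the soluble form. The variant 2 probe was also the only one of the 16 with 6 alternating A and G bases, gagaga, and leaving out all probes with such runs took the count of lower genes on the whole array from 903 to 498.

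The receptor genes lie together on chromosome 9. In the order of their probes these are *Il1r2*, *Il1r1*, *Il1rl2*, *Il1rl1*, *Il18r1* and *Il18rap*, over 377 kb. Across this cluster the genes past 2-fold by at least 1 probe were *Il1r2*, *Il1r1* and *Il1rl1*. With normexp no probe of these genes passed it, and their highest differences were 0.75, 0.41 and 0.92. *Il18r1*, the ligand-binding IL-18 receptor chain next to *Il1rl1*, read 17.5 and 15.4, a difference of -0.08 ± 0.30. *Il1rl2*, the IL-36 receptor, and *Il18rap*, the accessory chain of the IL-18 receptor, were at background level on both arrays.

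**Figure D3:**
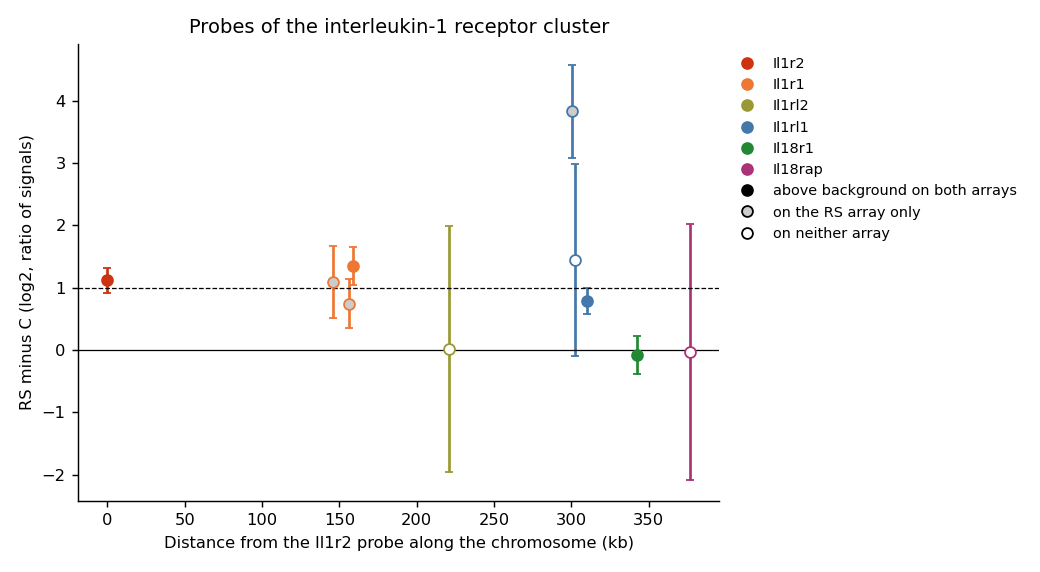
RS minus C ratio (log2, y axis) of each probe of the receptor cluster against its distance from the *Il1r2* probe along the chromosome (kb, x axis), with spot error bars, filled points for probes well above background on both arrays, grey points for the RS array only and open points for neither. The *Il1rl1* variant 1 probe has a ratio of 3.83, which against the C array's detection limit is a bound of 2.53, and *Il18r1* lies at -0.08.

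*Nlrp3* and *Casp1*, the inflammasome sensor and the protease that matures IL-1β and IL-18, differed by less than their spot errors. *Casp1* read 1410 and 1392, a difference of 0.08 ± 0.20. The 3 *Nlrp3* probes read 78.9 and 77.6, 22.4 and 24.3, and 14.7 and 14.6, with differences of 0.08 ± 0.21, 0.22 ± 0.28 and 0.09 ± 0.35. All 3 were well above background on both arrays and their intervals included zero. The brightest of them, of the predicted variant X1, shares 24 bases, TCTTTGCTTTTATTTTTATTTTTT, with 2 other probes, and the one of these above background on both arrays had a difference of -0.01. The difference of *Il1b* was 0.92 ± 0.29 above that of *Casp1*, with an interval of 0.35 to 1.48, and as far above that of *Nlrp3*.

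**Figure D4:**
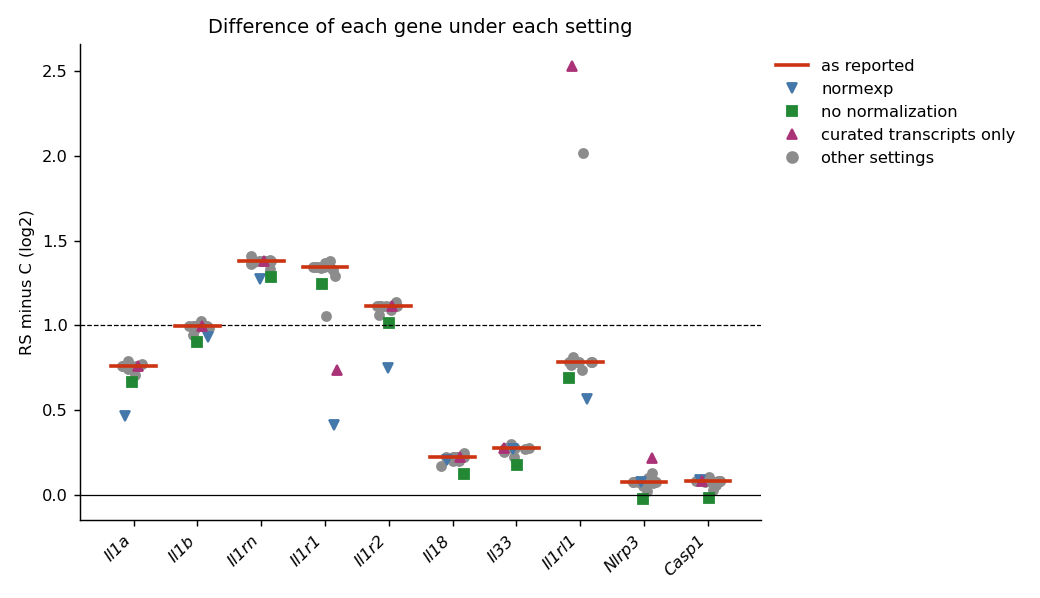
RS minus C difference (log2, y axis) of the 10 genes (x axis) as reported (red bar) and under 13 planned processing settings and 1 added after seeing the data, each setting a point; the dashed line marks 2-fold. *Il1rn* stays above the line under all of them, *Il1r1* and *Il1r2* fall below it with normexp, and *Il1rl1* reaches 2.53 with curated transcripts only.

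Beyond the 10 genes, 75 genes of the pathway were listed in 5 groups. Of these 66 were on the array, 54 were screened, and 9 (16.7%) were higher and 0 lower by 2-fold or more, with a median difference of 0.21, against 3.46% higher and 4.28% lower over all screened genes. All 9 lay in 1 group, genes that IL-1 is known to induce, and the 4 groups of ligands, receptor partners, adaptors and inflammasome genes held none by their brightest probes. The groups were chosen with earlier results of these data known, so these counts are a description.

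Among the other IL-1 family ligands, 5 were on the array and 2 were screened, while *Il36a*, *Il36g* and *Il1f10* were not well above background. *Il36b*, an IL-36 agonist, read 41.5 and 41.9, a difference of 0.11 ± 0.23. *Il36rn*, the IL-36 receptor antagonist, read 15.3 and 12.7, a difference of -0.17 ± 0.38. Of 8 receptor partners and soluble inhibitors, 4 were screened with a median of 0.02, namely *Il1rap* at 0.21, *Il18bp* at 0.13, *Il18r1* at -0.08 and *Sigirr* at -0.29. *Il1rap* is the shared signaling partner of IL-1R1 and ST2, *Il18bp* neutralizes IL-18, and *Sigirr* is an inhibitory receptor. The remaining 4, *Il1rl2*, *Il18rap*, *Il1rapl1* and *Il1rapl2*, were not well above background.

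All 16 adaptors and kinases of the MyD88 pathway were screened, none passed 2-fold by its brightest probe, and their median was 0.04. Another probe of *Tab2* had a log2 ratio of 1.79 and another of *Ikbkg* one of -0.96, both taken without regard to background. The largest positive differences were those of *Peli2*, a ubiquitin ligase of the receptor complex, from 14.4 to 26.6 (0.98 ± 0.29), *Irak3*, an inhibitory member of the kinase family, from 1659 to 2912 (0.91 ± 0.20), and *Irak2*, from 589 to 909 (0.73 ± 0.20). The largest negative differences, by the brightest probes, were those of *Tab1* at -0.52, *Irak1* at -0.08 and *Ikbkg* at -0.01. In the inflammasome group 13 of 16 genes on the array were screened, none passed 2-fold, and the median was -0.05. *Casp12* stood at 0.62, *Panx1*, a channel for ATP release, at 0.47 and *Mefv*, which encodes the sensor pyrin, at 0.39. At the other end were *Pycard*, the adaptor ASC that links sensors to caspase-1, at -0.39, *Casp8* at -0.19, and *Nlrp10*, which was above background in C only. *Nlrp6*, *Nlrp12* and *P2rx7* were not well above background, and *Nlrp1b*, *Nlrc4*, *Naip2*, *Naip6* and *Aim2* were not among the array's names.

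Among genes that IL-1 is known to induce, 19 of 21 were screened, 9 rose past 2-fold, none fell, and the median was 0.93, beside 3.46% higher over all screened genes. The list was chosen with earlier results of these data known, so its count is a description. The neutrophil chemokine genes *Cxcl1* and *Cxcl2* went from 20.5 to 624 (5.03 ± 0.09) and from 27.2 to 345 (3.76 ± 0.23). The monocyte chemokine gene *Ccl2* went from 1160 to 14380 (3.73 ± 0.07), on a probe with 6 alternating A and G bases. The other 6 past 2-fold were *Ptgs2* (cyclooxygenase-2) at 3.67, *Il6* at 3.40, *Ccl20* at 1.48, *Bcl3* at 1.31, *Nfkbiz* at 1.09 and *Csf3* at 1.06. The other *Bcl3* probe stood at 0.93, under 2-fold. *Csf2* was above background in RS only, at least 1.75-fold higher. *Ptges*, which encodes prostaglandin E synthase, was the only gene below zero, at -0.48 ± 0.21, and *Nos2* and *Lif* were not well above background. Many of these genes also respond to other cytokines, and which signal acted was not measured.

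**Figure D5:**
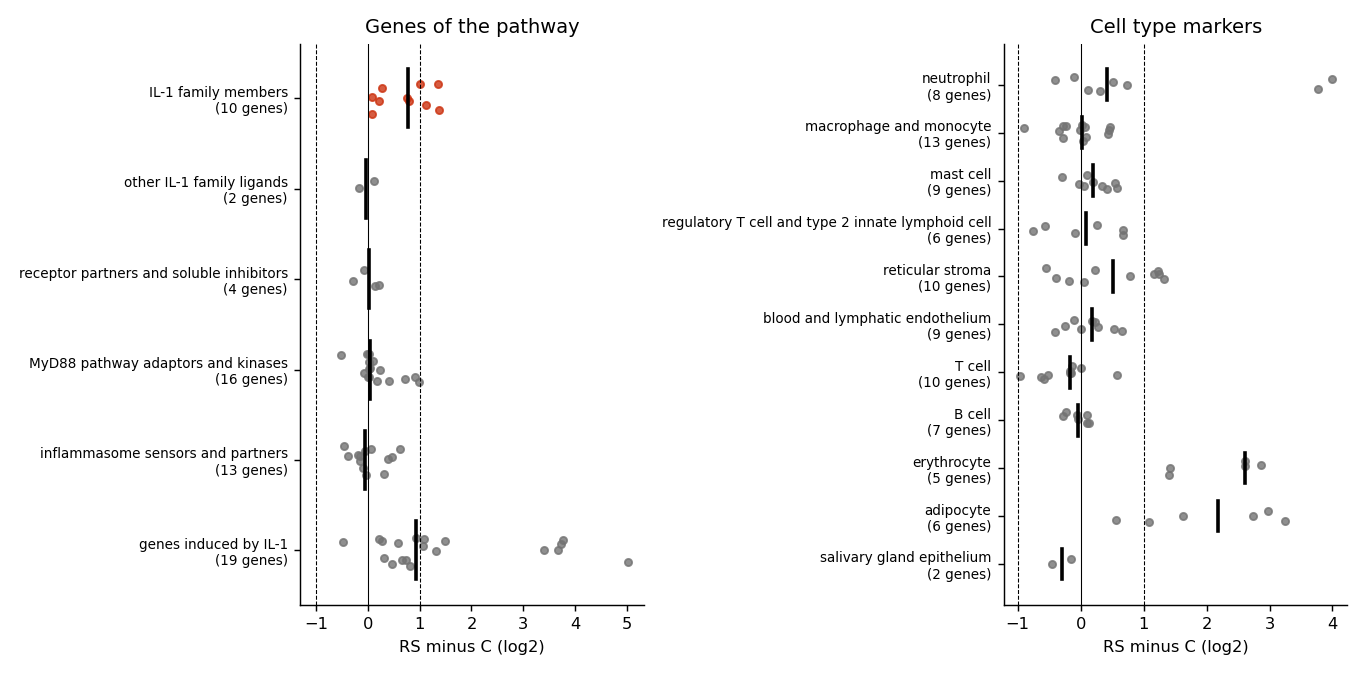
RS minus C difference (log2, x axis) of each screened gene in the family, in 5 groups of pathway genes and in 11 lists of cell type markers (rows), with the group median as a black bar and dashed lines at 2-fold. The medians are 0.77 for the family and 0.93 for genes induced by IL-1, and they lie between -0.05 and 0.04 for the other pathway groups.

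Markers of other cells that a node sample can hold also differed. The nodes are bulk tissue, so that fewer cells of a type and less RNA per cell cannot be told apart. Of 8 screened neutrophil markers, 2 rose past 2-fold, *S100a8* by 3.99 and *S100a9* by 3.78, beside 3.46% of all screened genes. The other *S100a8* probe had a log2 ratio of 1.60, taken without regard to background. The other 6 markers lay between -0.41 and 0.73, the latter a lower bound for *Cxcr2*, which was above background in RS only. *Mpo*, *Elane*, *Camp* and *Ngp* stayed at background level in both. The summed intensity of the list was 370 and 1124. Of 13 macrophage and monocyte markers none passed 2-fold, with a median of 0.02 and sums of 28064 and 26395. None of 9 mast cell markers passed it by its brightest probe either, with a median of 0.19 and sums of 1533 and 1564. Another probe of *Hdc* had a log2 ratio of 1.15, taken without regard to background. Regulatory T cells and type 2 innate lymphoid cells are known to carry ST2. None of their 6 screened markers passed 2-fold by its value or bound, with a median of 0.09 and sums of 153 and 129. *Ctla4* and *Areg* were above background in RS only, so their values are lower bounds and may understate a rise. Their log2 ratios, taken without regard to background, were 1.20 and 2.27. *Il5* and *Il13* were not well above background.

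Among reticular stroma markers 4 of 10 rose past 2-fold, *Col3a1*, *Col1a1*, *Col1a2* and *Pdpn* by 1.16 to 1.33, beside 3.46% of all screened genes. The other *Pdpn* probe stood at 0.55. Below zero were 3 of the list, *Ccl19* at -0.56, *Pdgfra* at -0.39 and *Ccl21* at -0.19. The *Ccl19* and *Ccl21* values come from probes with 6 alternating A and G bases. The list had a median of 0.51 and sums of 37079 and 45038. All 5 screened erythrocyte markers rose, with a median of 2.60 and sums of 6238 and 35342, with *Epb42* and *Slc4a1* not well above background. Of 6 screened adipocyte markers 5 rose past 2-fold, with a median of 2.18 and sums of 6378 and 15720, with *Plin1* and *Pck1* not well above background. Neither the 9 endothelial, the 10 T cell nor the 7 B cell markers held a gene past 2-fold, and their medians were 0.18, -0.16 and -0.05. All of these T cell and B cell markers, the defining cells of a lymph node, were above background on both arrays, and of 8 salivary gland markers only *Krt18* and *Krt14* were, with differences of -0.15 and -0.45. The part of these cells in the differences of the IL-1 family genes was not tested.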

How the data were processed

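Per the file headers and the paper, Cy3-labeled RNA was hybridized to Agilent SurePrint G3 rat arrays, and the authors used Feature Extraction 11.5.1.1 to read the spots. The deposited intensity values are background-subtracted within each array and not normalized between arrays. The deposited table of log2 values, with its scale unstated, matched log2 intensity shifted by the array's 75th percentile, since all 45598 probes agreed to within 0.1 with the values computed here. Its medians were -3.51 for C and -3.54 for RS, and it served as an alternative.

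Control and outlier spots were left out, log2 intensities of a probe's spots were averaged, and each array was shifted by its 75th percentile over probes. The scanner software's mark on over 50% of its spots put a probe well above background. A gene well above background on 1 array only has a lower bound, set against the higher of its own signal and the lowest signal well above background (intensity 9.45 in C and 8.52 in RS). Where its own signal is the higher, the bound is the plain ratio. A change was 2-fold, as in the paper's methods, with no test. Intervals are 1.96 spot errors either way.

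The family genes, lists and motifs were chosen with earlier results of these data known. All probes of the family are named, with the 3 largest positive and negative differences per pathway list, and after their values were seen the other genes induced by IL-1 that passed 2-fold. Of 16 probe accessions 13 matched the RefSeq table, all with the same symbol. RefSeq promoters (GRCr8) were read for 9 of the 10 genes. Settings tried were other scalings, normexp (R 4.3.3, limma 3.58.1, offset 50), filters, probe rules and outlier spots. Other steps ran in Python 3.11.15 (pandas 2.3.3, numpy 2.4.6), and the steps were tested on simulated data.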

Additional observations from a re-analysis of the deposited data

How the results depend on the processing

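With 1 array per group, the number of arrays limits every value, and dim probes such as those of *Il1r1* are limited further by background. Over 14 settings, 131 of 140 values of the 10 genes moved by less than their spot error. Of the settings 13 were planned and 1 (curated transcripts only) was chosen after seeing the data. No value could move when bounds gave way to plain ratios, the background filter changed or A and G runs were excluded. Every representative probe was above background on both arrays and had no such run. Nor could the 7 genes with 1 probe move under the mean over probes or the curated transcripts. The 131 thus includes values that were fixed in advance, and it overstates the stability. *Il1rn* ranged from 1.27 to 1.41 and passed 2-fold under all 14, *Il1r2* from 0.75 to 1.14 and *Il1r1* from 0.41 to 1.38. *Il1b* ranged from 0.90 to 1.02 and passed 2-fold with a median shift only, *Il1a* from 0.46 to 0.79, *Il1rl1* from 0.57 to 2.53, *Il18* from 0.12 to 0.25 and *Il33* from 0.18 to 0.30. *Nlrp3* and *Casp1* were below zero only without normalization between arrays, at -0.02 each. With normexp the family genes past 2-fold higher were 1, and the genes past it were 234 higher and 378 lower over all screened genes. By the curated transcripts *Il1r1* was 0.74 higher on the log2 scale, with a spot interval that included zero, and *Il1rl1* at least 2.53. By the mean over probes *Il1rl1* stood at 2.02. Over all genes, requiring both arrays above background gave 601 lower, no background filter gave 2031 higher and 2148 lower, and leaving out probes with 6 or more alternating A and G bases gave 498 lower, which moved the share of higher among all calls from 44.7% to 59.0%. Among the scalings, the median over all genes moved furthest without normalization, where it dropped by 0.098. The cause of these shifts was not tested. No paired analysis was possible because only 1 array per group was analysed.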
